A study of Mus musculus with 31 samples.

Results

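Kl, Ifitm7, Lin28b and Hs3st4 are 4 of 21887 protein-coding mouse genes, and are described here because the H3K4me3 score at their start was higher in every hippocampus library of TAK-418 mice than in any of vehicle mice. Kl and Ifitm7 were taken from heterozygotes for Kmt2d, and Lin28b and Hs3st4 from wild types. They were chosen by the scores per library in the authors' deposited lists of differential H3K4me3 regions: the lowest of 4 TAK-418 scores lay above the highest of 4 vehicle scores. The same rule held at the ends of other genes too, and the 4 are 2 of 3 such gene-end regions in heterozygotes and 2 of 9 in wild types. Gene ends are annotated starts and stops, and a region or peak within 2 kb was assigned to them.

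The study made ChIP-seq libraries for H3K4me3 and H3K4me1 from C57BL6 hippocampus at 30 days of age. The mice were KMT2D+/+ (wild type) or KMT2D+/bGeo (heterozygotes, with 1 disrupted copy of Kmt2d), and received by gavage either TAK-418 at 1 mg/kg/day or its methylcellulose vehicle for 2 weeks. Each of the 4 groups had 4 H3K4me3 libraries. The groups also had 4 H3K4me1 libraries each, except the TAK-418 wild types with 3, 31 libraries in all. The titles carry 16 different numbers, read here as those of 16 mice. All TAK-418 mice had lower numbers than all vehicle mice, so whatever follows the numbering cannot be told apart from treatment. The sex of the mice was not given in the sources used here.

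H3K4me3 sits at the starts of active genes and of many genes with CpG-rich promoters. Kmt2d is among the genes for enzymes that methylate H3K4. LSD1, the target of TAK-418, removes methyl groups from the mono- and dimethylated forms of the same residue. Klotho, the product of Kl, is a membrane protein of the kidney and the choroid plexus that acts as a co-receptor for the hormone FGF23, and its shed form circulates. Ifitm7 belongs to a family of small interferon-induced membrane proteins, several of which hinder the entry of viruses into cells. Lin28b encodes an RNA-binding protein that blocks the maturation of let-7 microRNAs and is best known from embryonic and progenitor cells. Hs3st4 encodes a 3-O-sulfotransferase that modifies heparan sulfate chains and is expressed in neurons.

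In all 4 genes the listed region lay at the start and not at the stop. On mm10, the Kl region (chr5:150952701-150953050) began 94 bp inside the gene, which is read from the plus strand and spans 150952607 to 150993817. The Ifitm7 region (chr16:13986751-13987200) covered the start of this minus-strand gene (13981702 to 13986867). It also lay 139 bp from an end of Bmerb1, so its score cannot be divided between the 2 genes. The Lin28b region (chr10:45485951-45486600) covered the outermost start of this minus-strand gene (45376617 to 45486314). The Hs3st4 region (chr7:123982801-123983250) began 435 bp inside the outermost start of this plus-strand gene (123982366 to 124398989). An end of the long non-coding RNA gene Gm26974, its start or its stop, lay 204 bp from the region. The regions were 350, 450, 650 and 450 bp long, in the order Kl, Ifitm7, Lin28b and Hs3st4. Whether they cover exons or introns was not analysed here.

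The 250 bases before the start in the RefSeq table (build GRCm38.p6) are shown to set each promoter beside its region, 5′ to 3′ on the gene's strand, with each CpG in capitals. A table entry was found for all 4 genes. The windows are chr5:150952357-150952606 (plus) for Kl, chr16:13986868-13987117 (minus) for Ifitm7, chr10:45470202-45470451 (minus) for Lin28b and chr7:123982578-123982827 (plus) for Hs3st4.
Kl: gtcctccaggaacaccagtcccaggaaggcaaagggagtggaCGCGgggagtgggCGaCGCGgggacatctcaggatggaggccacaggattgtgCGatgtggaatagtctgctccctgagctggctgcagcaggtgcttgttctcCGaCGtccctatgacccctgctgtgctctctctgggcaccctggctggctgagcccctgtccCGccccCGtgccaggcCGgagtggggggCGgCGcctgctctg
Ifitm7: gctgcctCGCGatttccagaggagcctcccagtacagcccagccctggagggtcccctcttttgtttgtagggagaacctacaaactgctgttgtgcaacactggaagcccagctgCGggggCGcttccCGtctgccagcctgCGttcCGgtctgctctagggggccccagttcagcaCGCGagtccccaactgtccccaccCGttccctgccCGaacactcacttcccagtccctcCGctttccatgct
Lin28b: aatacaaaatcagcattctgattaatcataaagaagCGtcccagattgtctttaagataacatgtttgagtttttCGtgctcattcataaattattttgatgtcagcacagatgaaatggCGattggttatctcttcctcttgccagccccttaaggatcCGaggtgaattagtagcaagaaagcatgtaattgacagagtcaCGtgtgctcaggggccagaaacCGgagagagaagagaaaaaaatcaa
Hs3st4: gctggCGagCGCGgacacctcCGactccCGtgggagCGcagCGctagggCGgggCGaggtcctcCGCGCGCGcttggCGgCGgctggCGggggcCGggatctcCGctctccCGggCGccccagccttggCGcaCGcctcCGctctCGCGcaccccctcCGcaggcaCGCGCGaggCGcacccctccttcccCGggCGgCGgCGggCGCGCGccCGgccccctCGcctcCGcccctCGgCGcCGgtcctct

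These promoters were not of 1 kind. The Hs3st4 window held 43 CpGs and was 82% G and C, and 0.712% of 32851 promoter windows of that length held as many CpGs. Kl had 13 CpGs (66.8% G and C) and Ifitm7 had 12 (62.8%), a number that 31.5% and 33.5% of windows reach. The Lin28b window had 6 CpGs and 39.2% G and C, beside medians of 6 and 52.4% over all windows. The whole Ifitm7 window and 27 bases of the Hs3st4 window lay inside the listed regions, while the Kl window ended before its region. The tabulated Lin28b start lay 15750 bp inside the gene from its region, which sat at the outermost start. The printed Lin28b bases are therefore not those of the listed region, and whether they carried a peak was not examined.

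Of 5 short motifs searched on both strands of these windows, the GC box GGGCGG was found 2 times in Kl and 3 times in Hs3st4, and 32.7% of all windows hold it. Lin28b held 1 E box CACGTG (6.02% of windows) and 1 CCAAT box CCAAT (33.8%). The TATA box TATAAA (12.4% of windows) and the interferon-stimulated response element (2.98%) had 0 matches in each of the 4 windows, that of Ifitm7 included. None of these motifs overlaps another in its letters, and a match is only a match of letters.

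Facts of the whole series bear on all values below. The 1 longest H3K4me3 peak list in each group had 13343 to 16750 peaks at the ends of 12057 to 13155 genes (55.1% to 60.1% of all protein-coding genes), and the other 12 had 302 to 2281 peaks at the ends of 49 to 1954 genes. The 15 H3K4me1 lists had 88 to 456 peaks. These lists hold no read counts, so the depth behind a value is unknown. Of the H3K4me3 libraries, 1 of 4 in wild types on vehicle and 2 of 4 in wild types on TAK-418 had peaks on the Y chromosome below 90 Mb, as had 2 of 4 and 3 of 4 in heterozygotes. The part of sex in the results was not tested. In these 4 lists 8 to 9 of 10 marker genes of excitatory hippocampal neurons had a peak at an end, as had 7 to 9 of 10 of neural progenitors, so that the labelled tissue cannot be told from these counts.

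At the start of Kl the heterozygote vehicle scores were 5, 15, 36 and 23, and the TAK-418 scores 76, 83, 83 and 55. Every treated library thus stood above every vehicle library, and the vehicle libraries differed more among themselves in relative terms. The means were 19.8 ± 13.1 and 74.2 ± 13.3 (SD, n = 4 per group), a ratio of 3.76. The lowest treated score was 1.53 times the highest vehicle score.

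At the start of Ifitm7 the vehicle scores were 23, 25, 21 and 27, and the TAK-418 scores 79, 63, 193 and 51. The vehicle libraries were nearly level, whereas 1 treated library was far above the other 3. The means were 24 ± 2.58 and 96.5 ± 65.3 (SD, n = 4), a ratio of 4.02. The coefficient of variation was 10.8% in vehicle and 67.7% in treated heterozygotes.

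At the outermost start of Lin28b the wild type vehicle scores were 32, 65, 136 and 99, and the TAK-418 scores 164, 150, 218 and 196. The treated libraries were the more even, and the gap to the highest vehicle library was the smallest of the 4 genes, at 14 score units. The means were 83 ± 44.7 and 182 ± 30.8 (SD, n = 4), a ratio of 2.19.

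At Hs3st4 the wild type vehicle scores were 17, 57, 36 and 42, and the TAK-418 scores 83, 107, 172 and 78. One treated library was well above the other 3, and the spread relative to the mean was alike in both groups (43.6% and 39.3%). The means were 38 ± 16.6 and 110 ± 43.2 (SD, n = 4), a ratio of 2.89. No p-value is attached to these 4 differences, since the same scores chose the genes.

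**Figure D1:**
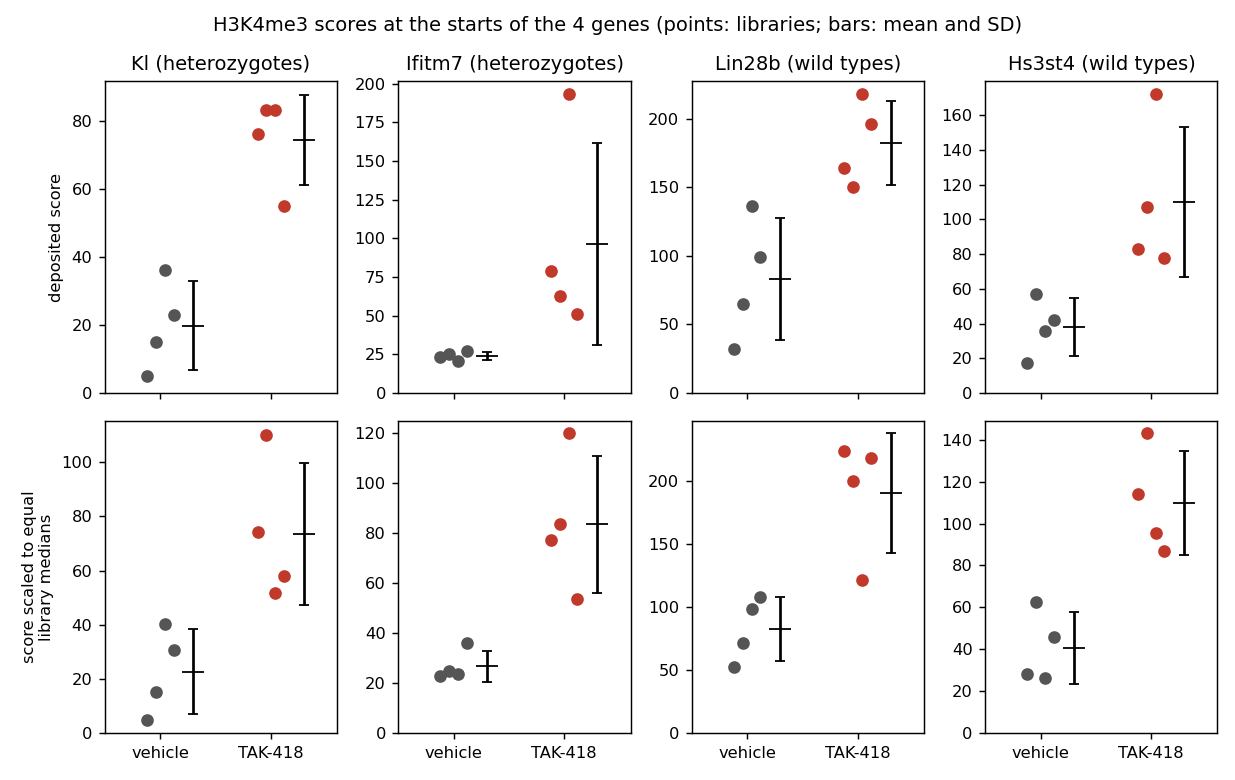
H3K4me3 scores per library (points, y axis from 0) at the starts of the 4 genes in vehicle and TAK-418 mice of the genotype each was chosen in, with mean and SD beside them; the upper row has the deposited scores and the lower row the scores scaled to equal library medians. In both rows each TAK-418 library lies above all vehicle libraries of its panel, and the Ifitm7 library at 193 comes down to 120 with scaling.

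The libraries of a group did not have equal scores in general. If a place in the deposited cells stands for the same library throughout a list, which no source states, 1 place per group had the highest median over the gene-end regions. These medians were 131 in vehicle and 169 in TAK-418 heterozygotes, where the other places had 29 to 74. In wild types they were 160 with vehicle and 209 with TAK-418, where the other places had 57 to 93. The place of highest median was 2 in vehicle and 3 in TAK-418 heterozygotes, and 3 in both wild type groups. In each group the library with the longest peak list has that same number in the order of the samples. The highest treated scores of Ifitm7 (193), Lin28b (218) and Hs3st4 (172) all stood in that place, as did the highest vehicle score of Lin28b (136). At Kl, one of the 2 treated scores of 83 stood there.

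With each library scaled to the same median over its list, the groups still did not overlap at any of the 4 genes. The ratio of means became 3.25 at Kl, 3.13 at Ifitm7, 2.31 at Lin28b and 2.71 at Hs3st4. The order within groups changed: the treated library of highest score at Lin28b became the lowest, at 121 beside 200, 218 and 224, and the highest vehicle library then stood at 108. At Kl the scaled treated scores were 74.3, 110, 51.6 and 57.9, and the vehicle scores 4.94, 15, 40.1 and 30.6.

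Such separation held for few regions of both lists, and whether they were more or fewer than without any effect was not tested. In heterozygotes 6 of 1715 regions were higher with TAK-418 without overlap (0.35%), 3 of them among 861 gene-end regions (0.348%), and no region was lower without overlap. In wild types 11 of 2780 regions were higher without overlap (0.396%), 9 of them among 1955 gene-end regions (0.46%), and 4 were lower. These percentages describe lists that the authors had already filtered by p, and nothing is read from them about the 4 genes, which the rule picked out. Scaling to equal medians left the heterozygote count at 4, with Kl and Ifitm7 among them, and brought the wild type count to 63. Leaving out 1 library moved the heterozygote count to between 10 and 99 and the wild type count to between 13 and 178. All 8 libraries moved the former by over 1.5 times and 6 of 8 the latter, in part because 3 against 4 values separate more easily.

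The third heterozygote region was at Cntn3, for a contactin of neuronal surfaces, just inside the rule: 12, 40, 35 and 21 with vehicle, and 71, 41, 89 and 72 with TAK-418, a gap of 1 score unit. Psma1, for a subunit of the proteasome, was just outside it, with 29, 56, 31 and 35 against 61, 53, 217 and 53. In wild types the smallest gap inside was 14 score units, shared by Lin28b with Ror2, Dennd3 and a region at Epb41 and Tmem200b. Ror2, a receptor for Wnt5a, had 41, 14, 35 and 31 with vehicle and 74, 155, 58 and 55 with TAK-418. Rasd2, for a striatum-enriched small GTPase, was just outside with a gap of 0: 78, 111, 114 and 101 against 114, 115, 234 and 152.

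**Figure D2:**
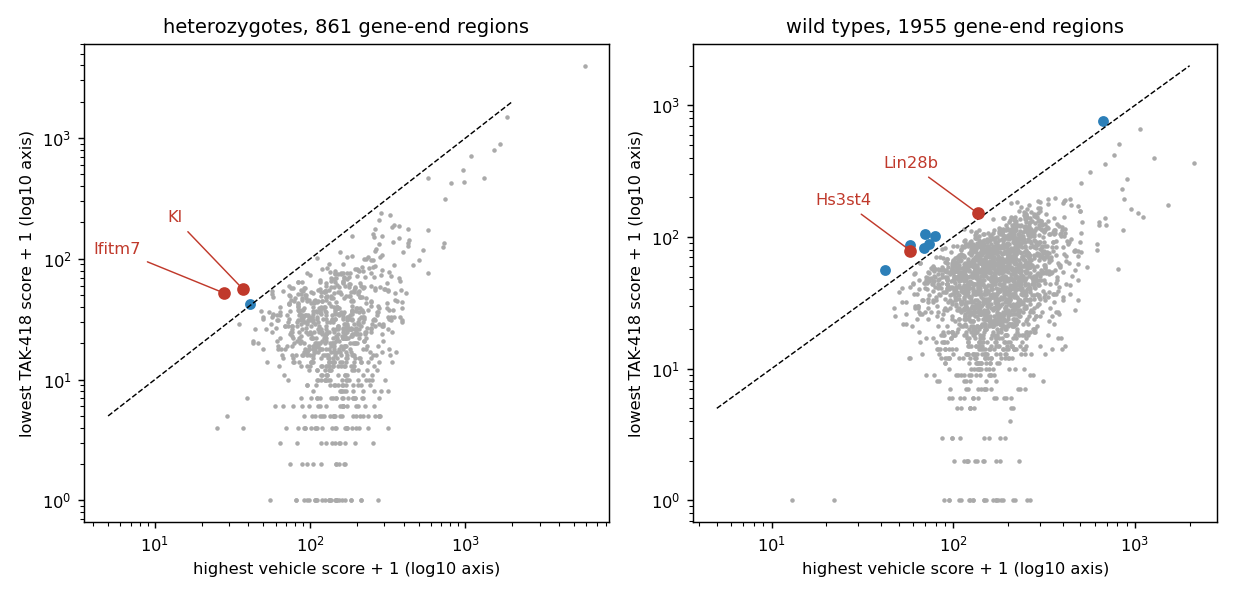
Lowest TAK-418 score against highest vehicle score, each plus 1 and on log10 axes, for every gene-end region of the heterozygote and wild type H3K4me3 lists; regions above the dashed line do not overlap (blue), with Kl, Ifitm7, Lin28b and Hs3st4 in red. Of 861 and 1955 gene-end regions, 3 and 9 lie above the line.

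By the authors' −log10 p in their deposited table, Ifitm7 (9.41) ranked 4 and Kl (6.99) ranked 9 among the 453 gene-end regions listed as higher in heterozygotes. Lin28b (7.17) ranked 5 and Hs3st4 (6.89) ranked 9 among 1152 in wild types. Among all regions listed as higher, Ifitm7 ranked 89 and Kl 127 of 1175, and Lin28b 60 and Hs3st4 67 of 1769. These ranks come from the libraries whose scores chose the genes and are a description only. Tested over all regions of each list with limma on log2(score + 1), 0 of 1715 regions (0%) in heterozygotes and 0 of 2780 (0%) in wild types passed an adjusted p of 0.05. At an unadjusted p under 0.05 there were 3 and 49 regions, and the smallest adjusted p was 0.683 and 0.77. The libraries were not scaled to equal medians for this fit. The authors had already filtered these regions by p for the same comparison, and the fit includes the scores that chose the 4 genes. Its adjusted p is therefore only a description of each list.

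None of the 4 genes had a region at an end in the other 3 H3K4me3 lists used here. These are the TAK-418 list of the other genotype and the 2 lists that set vehicle or TAK-418 heterozygotes against wild types on vehicle. The nearest listed H3K4me3 region in those lists was 78.5 kb from an end of Ifitm7, 278.1 kb from Kl, 309 kb from Lin28b and 603.9 kb from Hs3st4. The lists hold only regions with a −log10 p of at least 1.3, so a gene without a row has no score in that comparison, and whether TAK-418 acted differently in the 2 genotypes was not tested. The 4 H3K4me1 lists held no region at an end of these genes either, the nearest lying 740.6 kb from Kl.

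Peaks called in single libraries give a second view, also in the libraries that played no part in the choice. Kl, Ifitm7 and Hs3st4 each had an H3K4me3 peak at the start in 4 of 16 libraries and Lin28b in 5 of 16. The 4 were in each case the longest list of each group, and no gene had an H3K4me1 peak at an end in any of 15 libraries. The fifth Lin28b peak was in a wild type TAK-418 library with 1728 peaks in all. In the genotype not used for the choice, each gene had a peak in 1 of 4 vehicle and 1 of 4 TAK-418 libraries (two-sided Fisher's exact test, p = 1 and adjusted p = 1). With 4 libraries against 4 the smallest p this test can give is 0.0286. It called 0 of 13338 genes (0%) in heterozygotes and 0 of 13293 (0%) in wild types, with 0 at an unadjusted p under 0.05, so the presence of a peak could not separate the groups.

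The peak at Kl was placed differently in the longest heterozygote vehicle list. There it was 311 bp long, began 640 bp inside the gene and did not touch the listed region, with a fold enrichment of 2.7 and a −log10 q of 1.18, the lowest values in that list. In the longest heterozygote TAK-418 list the Kl peak was 1025 bp long, covered the start and all 350 bp of the region, and had a fold of 5.34 and a −log10 q of 4.85. In wild types the Kl peak covered the region with vehicle (550 bp, fold 5.61) and with TAK-418 (1269 bp, fold 5.43).

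Ifitm7 had peaks over its start in each of these 4 lists. Its fold was 2.7 with vehicle and 8.31 with TAK-418 in heterozygotes, and 4.47 and 7.28 in wild types. The heterozygote vehicle value is again the lowest fold of its list. The peaks were 637 and 909 bp long in heterozygotes and 796 and 1000 bp in wild types.

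At Lin28b the fold was 5.18 with vehicle and 7.77 with TAK-418 in wild types, with peaks of 710 and 1369 bp. The other wild type TAK-418 library with a Lin28b peak had a fold of 4.44 over 347 bp. In heterozygotes the fold was 3.17 and 4.04, with peaks of 929 and 1020 bp.

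At Hs3st4 the fold was 3.98 with vehicle and 6.37 with TAK-418 in wild types, over broad peaks of 1636 and 1591 bp. In heterozygotes it was 4.54 and 4.82, over 1025 and 1487 bp. The heterozygote vehicle peak covered 249 of the 450 bp of the listed region and began 636 bp inside the gene.

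**Figure D3:**
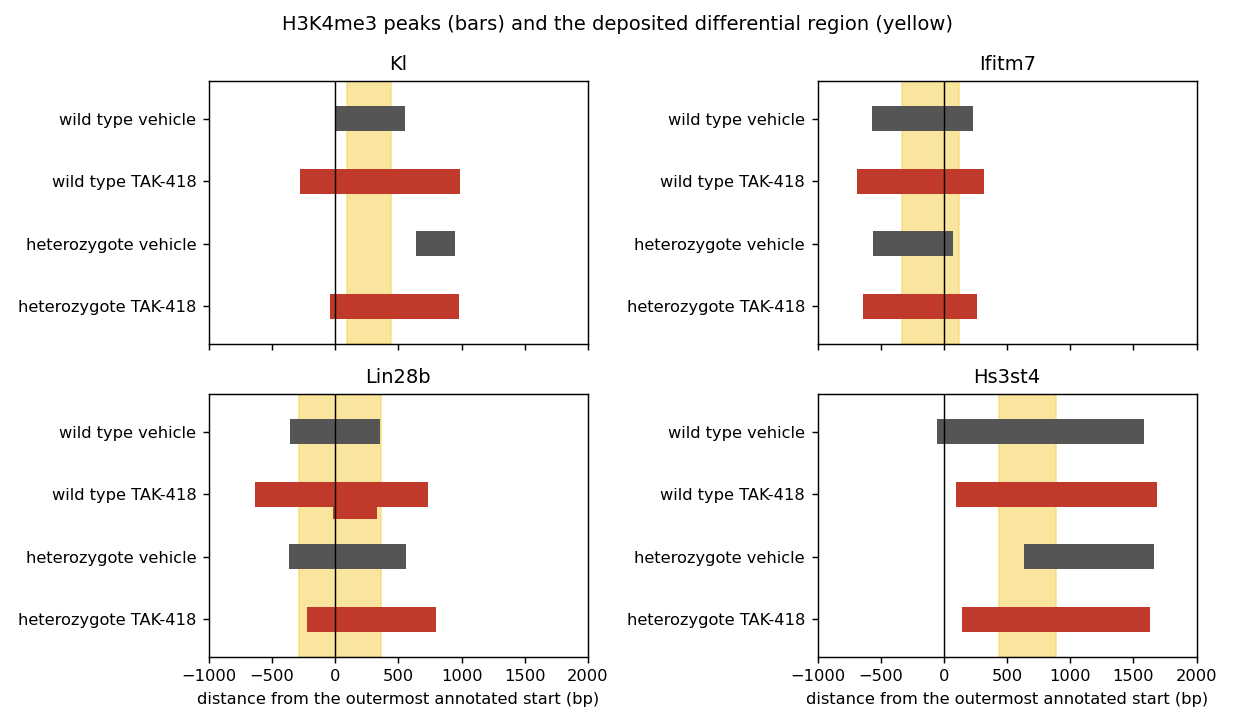
Extent of H3K4me3 peaks (bars; grey vehicle, red TAK-418) around the outermost annotated start of each gene (line at 0; x axis in bp, positive into the gene) in the longest peak list of each group, with the listed differential region in yellow; the thin bar at Lin28b is the other wild type TAK-418 library. At Kl only the heterozygote vehicle peak lies outside the region.

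These folds are the authors' values and are relative to each library's own background. The lists also had different lowest folds: 2.7 with vehicle and 3.6 with TAK-418 in heterozygotes, and 3.3 and 3.04 in wild types. Only the heterozygote vehicle list could thus hold a fold as low as 2.7. Over all marked genes the median fold in heterozygotes was 4.36 with vehicle and 6.2 with TAK-418, and in wild types 5.54 and 6.4. Ifitm7 thus lay below its list's median in both vehicle lists and above it in both TAK-418 lists. Lin28b did so in wild types and lay below the median in both heterozygote lists. Kl was above the median in the wild type vehicle list alone, and Hs3st4 in the heterozygote vehicle list alone. The heterozygote folds of Kl and Ifitm7 and the wild type folds of Lin28b and Hs3st4 come from groups whose scores chose these genes. Those folds are therefore a description and no new support. With 1 such library per group there is no replicate check of these values.

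**Figure D4:**
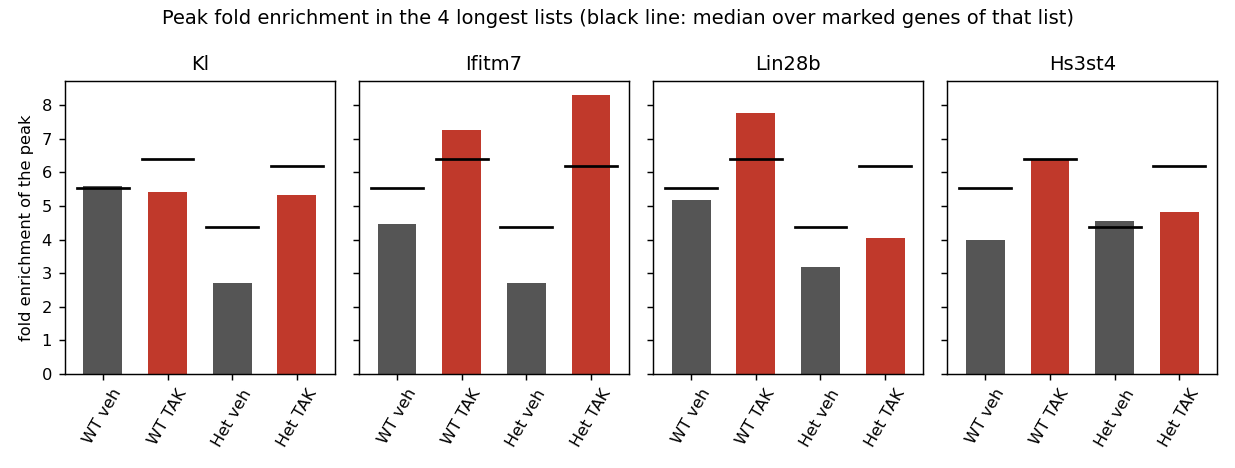
Fold enrichment of the H3K4me3 peak at each gene (bars from 0) in the longest peak list of each group (WT wild type, Het heterozygote, veh vehicle, TAK TAK-418), with a black line at the median over all marked genes of that list. The Ifitm7 bar is 2.7 in heterozygote vehicle under a line at 4.36, and 8.31 in heterozygote TAK-418 over a line at 6.2.

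The gene-end regions listed as higher with TAK-418 whose scores most resembled each member over the 8 libraries of its list were found by Pearson's r of log2(score + 1). All of them share the libraries and the difference between the groups, so r is a description only. Kl was nearest to Cntn3 (r = 0.851), to the Ifitm7 region (0.753) and to Zfp982 (0.743), of 452 regions. Ifitm7 was nearest to Psma1 (0.907), to Sbf1 (0.862), for a regulator of myotubularin phosphatases, and to Gm3411 (0.842). Lin28b was nearest, of 1151 regions, to Igf1r (0.944), for the receptor of insulin-like growth factor 1, to Bend5 (0.932) and to the zinc finger gene Zfp24 (0.925). Igf1r had 46, 99, 125 and 103 with vehicle and 158, 110, 220 and 156 with TAK-418. Hs3st4 was nearest to a region at Phf12 and Dhrs13 (0.948), to Notum (0.926), whose enzyme removes the lipid of Wnt ligands, and to a region at Epb41 and Tmem200b (0.9).

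Of 19 genes of klotho and FGF23 signalling 1 was listed as higher in heterozygotes, Kl itself, and 1 as lower, beside 2.19% and 2.12% of all 21887 protein-coding genes. The lower one was Bace1, a protease gene, with 109 ± 84.7 in vehicle and 66.2 ± 77.4 in TAK-418 mice (SD, n = 4). In wild types, where 5.87% of genes were listed as higher and 4.4% as lower, the list had 2 higher and 1 lower. These were the FGF receptor genes Fgfr1 (188 ± 82.7 and 244 ± 144) and Fgfr3 (84.8 ± 51 and 119 ± 59.7), and Bace1 again as lower (140 ± 71.1 and 86.8 ± 76.7). None of these differences passed limma, a fit that only describes the listed regions. In the longest peak lists 9 to 12 of the 19 genes had a peak, beside 55.1% to 60.1% of all protein-coding genes. Kl, Fgfr1, Fgfr2, Fgfr3, Fgf23, Adam10, Adam17, Bace1 and Vdr were marked in 4 of 4. Fgf15, Fgfr4 and Slc34a1 were marked in 2 and Slc34a3 in 1. Klb, the relative of Kl that serves other FGF hormones, was marked in 0 of 4, as were Lctl, Fgf21, Trpv5, Cyp27b1 and Cyp24a1.

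For the choroid plexus, where Kl is most known in brain, and the ependyma, 0 of 12 marker genes had a listed region in either genotype. With 2.19% of all genes listed as higher and 2.12% as lower in heterozygotes, and 5.87% and 4.4% in wild types, lists of this size can hold 0 or 1 gene at the level of all genes, and nothing is read from these counts. In the longest peak lists 3 to 6 of the 12 had a peak, beside 3 to 5 of 10 markers of vascular cells, 1 to 2 of 10 of microglia and the 55.1% to 60.1% of all genes. Ttr, Folr1, Kcnj13, Aqp1 and Kcne2 had 0 peaks in these 4 libraries. Of the other markers, Enpp2, Msx1 and Foxj1 had a peak in 4 of them, Prlr in 3, Clic6 and Lmx1a in 2 and Otx2 in 1. The counts of listed genes were also 0 of 10 for vascular cells, microglia and excitatory hippocampal neurons in both genotypes, and 0 of 10 in heterozygotes and 1 of 10 in wild types for neural progenitors. That gene was Sox11 (68.5 ± 32.9 with vehicle and 118 ± 67.3 with TAK-418). In whole tissue a change in the number of cells of a type and a change of the mark within those cells cannot be told apart.

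Of 21 genes of the IFITM family and the interferon response, Ifitm7 alone was listed in heterozygotes and 0 were listed in wild types. In heterozygotes 2.19% of all genes were listed as higher and 2.12% as lower, in wild types 5.87% and 4.4%, and the 1 listed gene is the chosen one. Among the family, Ifitm7 and Ifitm10 had a peak in 4 of the 4 longest lists, Ifitm2 in 2, and Ifitm1, Ifitm3, Ifitm5 and Ifitm6 in 0. The Ifitm7 peaks overlapped the listed region, 139 bp from an end of Bmerb1, and cannot be divided between the 2 genes. Ifit1, Ifit3, Oas1a and Rsad2, which are induced by interferon, also had 0. In these lists 9 to 13 of the 21 genes had a peak, beside 55.1% to 60.1% of all protein-coding genes.

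Of 24 genes of the LIN28 and let-7 pathway, 3 were listed as higher and 4 as lower in wild types, Tut4 in both directions at adjacent regions, beside 5.87% and 4.4% of all genes. In heterozygotes 2 were listed as higher and 1 as lower, beside 2.19% and 2.12%. The higher ones in wild types were Lin28b, which the rule chose, Igf2bp2 and Tut4. Igf2bp2, for an mRNA-binding protein regulated by let-7, had 39.5 ± 23.3 with vehicle and 83 ± 21.8 with TAK-418. Tut4, for the uridylyltransferase that acts with LIN28 on let-7 precursors, had 132 ± 110 and 221 ± 134 at one region and 133 ± 81.9 and 87 ± 79.1 at the other. The other lower ones were Arid3a, and Drosha and Ago2 of the microRNA machinery, such as Drosha with 79.8 ± 21.3 and 51.2 ± 33. In heterozygotes Tut4 (56.2 ± 39.9 and 102 ± 60.4) and Dicer1 (74.2 ± 38.2 and 106 ± 88.4) were listed as higher. Lin28a, the close relative of Lin28b, had a peak in 2 of the 4 longest lists and no listed region. In these lists 20 to 24 of the 24 genes had a peak, beside 55.1% to 60.1% of all protein-coding genes.

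Of 26 genes of heparan sulfate synthesis, 5 were listed as higher and 1 as lower in wild types, beside 5.87% and 4.4% of all genes. In heterozygotes 1 was listed as higher and 0 as lower, beside 2.19% and 2.12%. Hs3st4 is 1 of the 5 by the choice, and no test of the list was made. The higher ones besides Hs3st4 were Xylt1 (95.8 ± 59.6 and 160 ± 84.6) and Xylt2 (108 ± 82.7 and 146 ± 111), which start the sugar chain, Ndst1 (79.2 ± 41.7 and 109 ± 93.1), which starts its sulfation, and Hs6st3 (112 ± 78.8 and 164 ± 79.2), a 6-O-sulfotransferase. Hs3st1, another 3-O-sulfotransferase, was the lower one, with 84.2 ± 37 and 55.8 ± 34.8, opposite to Hs3st4. In heterozygotes Ext2, of the chain polymerase, had 64.2 ± 21.9 and 99 ± 92.2. All 7 genes of the 3-O-sulfotransferase family had a peak in at least 2 of the 4 longest lists, Hs3st2 and Hs3st3b1 in 2 and the other 5 in 4. In these lists 22 to 26 of the 26 genes had a peak, beside 55.1% to 60.1% of all protein-coding genes, and nothing is read from this about the family.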

How the data were processed

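ChIP-seq for H3K4me3 (16 libraries) and H3K4me1 (15) was deposited as 1 peak list per library, in which the fold enrichment (a ratio) and the −log10 q of each peak are the authors' values. The layout is that of MACS2 broad peaks, and the submitters' processing notes name mm10, MACS2, MACS and bedtools, without versions. The 8 deposited lists of differential regions give a −log10 p by the authors and a whole-number score per library. Which tool and scaling gave the scores is not given in the sources used here. Scores are not tied to named libraries, and lists were not compared by score. Genes and promoters came from RefSeq (GRCm38.p6). Peaks, regions and motifs were matched with Python 3.11.15, numpy 2.4.6 and scipy 1.17.1, and regions were fitted with limma 3.58.1 in R 4.3.3 (log2(score + 1), Benjamini-Hochberg over each list), after the fit had been tested on simulated data. The members, lists and tests were chosen with earlier results of these data known. Besides the 4 genes, the text names the 3 regions most like each, the regions just inside and outside the rule, and listed genes of the pathway lists. Alternatives were another pseudocount, scaling, a filter on low scores, other peak windows and thresholds, and leaving out libraries. Limma was not run on scaled scores, and the simulated libraries did not differ in level. Mx1 and Mx2 of the interferon list had no protein-coding entry, and 1 listed gene of the LIN28 and let-7 list is not reported here.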

Additional observations from a re-analysis of the deposited data

Results flagged for a closer look

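In each H3K4me3 group 1 library stood far from the other 3 in how many protein-coding genes it marked at an end: 12868 in heterozygote TAK-418, 13155 in wild type TAK-418, 12057 in wild type vehicle and 12291 in heterozygote vehicle mice. These are the libraries that hold nearly all peaks at Kl, Ifitm7, Lin28b and Hs3st4. Of the 8 groups of scores at the 4 genes, 0 held a value set apart in this way. About 1 in 20 groups of 4 is expected to show such a gap, and 12 groups were examined.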

How the results depend on the processing

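Over 11 alternatives the log2 difference ranged from 1.6 to 2.49 at Kl, 1.37 to 2 at Ifitm7, 0.9 to 1.59 at Lin28b and 1.22 to 1.79 at Hs3st4. Since the genes were chosen for groups that do not overlap, leaving out libraries or changing the pseudocount could not turn the direction. Scaling to equal medians could have, and gave 1.93, 1.58, 1.21 and 1.48. The number of regions higher without overlap did not hold. It was 6 in heterozygotes and ranged from 10 to 99 without 1 library, and it was 11 in wild types and ranged from 13 to 178. Scaling to equal medians gave 63 in wild types. Without the value of highest gene-end median in each group, an alternative chosen after seeing the data, the counts were 144 and 273, of which fewer samples are a part. Limma passed 0 regions under all 11 alternatives in each genotype, none of which scaled the libraries to equal medians. Its result on scaled scores was not tested. The most regions at an unadjusted limma p under 0.05 were 181 in heterozygotes and 476 in wild types, both without TAK-418 value 3, beside 3 and 49 with all libraries. Requiring a −log10 q of at least 5 left H3K4me3 peaks at Kl and Ifitm7 in 2 libraries each and at Lin28b and Hs3st4 in 1 each, while the other peak windows left the counts at 4, 4, 5 and 4. No paired analysis was possible because mice of different groups share no replicate number in the labels. Depth is unknown, since the files hold no read counts.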

Other observations

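In wild types 3 gene-end regions were lower with TAK-418 without overlap, named here after their values were seen. Mfap3l had 67, 88, 70 and 118 with vehicle and 13, 21, 54 and 1 with TAK-418. Wdr37 had 74, 119, 130 and 79 against 38, 73, 62 and 55, a gap of 1 score unit. A short region at Ajm1 and Rabl6 had 10, 20, 14 and 21 against 4, 0, 5 and 9. In heterozygotes the number of such gene-end regions was 0.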
